A study of Mus musculus with 13 samples.

Results

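The genes described here are 10 that germ cells use for meiosis and for handling their RNA: Sycp1, Sycp2, Sycp3, Syce1, Syce2, Hormad1, Stag3, Fkbp6, Dazl and Ddx4. They were taken by name, as the rows of the gene count tables whose Ensembl identifier carries one of these symbols in GENCODE M21, and all 10 were found among 49315 genes. The 10 were chosen with their counts in these libraries already known, above all the counts of Sycp1 in nodes and of Fkbp6 in tumours. Their levels are therefore given as a description with no p-value, and where the edgeR calls among them are counted, the count stands beside the share of all genes called and supports nothing, while other genes of the same pathways and the genes around Sycp1 were tested.

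Meiosis is the division that makes eggs and sperm, and it depends on the synaptonemal complex, a zipper-like protein structure that holds paired chromosomes together. Most of its genes, like those of the germ cell RNA helicases and RNA-binding proteins, are kept silent in body tissues, in part by DNA methylation and by repressors that bind E-box and E2F6-type sites in their promoters. Tumour cells can transcribe some of them, and such genes are known as cancer-testis or germline genes.

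The study asked what loss of the Notch ligand Jagged-1 from regulatory T cells does to the lymph node that drains a melanoma. Whole tissue was sequenced in bulk from female mice carrying Foxp3eGFP-Cre-ERT2, a tamoxifen-inducible Cre at the Foxp3 locus, which restricts recombination to Foxp3-expressing cells, mainly regulatory T cells. Foxp3ΔJag1 mice were homozygous for the floxed Jag1 allele. Foxp3Ctrl mice are given as Jag1 fl/wt in the design text and as WT in the genotype label. All mice, controls included, were given tamoxifen at the age of 6 to 8 weeks (0.1 mg/g, 5 doses). After 9 days without it and by 11 weeks of age, 200000 B16F10 cells in matrigel were placed in the skin. B16F10 is a mouse melanoma line, so every tumour grew from the same line. The values come from 3 Foxp3ΔJag1 tumour-draining lymph nodes (tdLN), 3 Foxp3Ctrl tumours and 3 Foxp3Ctrl tdLN. The numbers 1 to 3 name the libraries of a group.

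Library totals lay between 32117478 and 44540888 counts, and levels are given as CPM, the count scaled to a common library total. Jag1 itself averaged 24.1 ± 3.58 CPM in Foxp3ΔJag1 nodes and 23.2 ± 1.21 CPM in Foxp3Ctrl nodes (SD, n = 3 each), and the counts cover the whole gene in the whole tissue, so they do not check the deletion in regulatory T cells. Of the node markers, Glycam1, a mucin of high endothelial venules, averaged 1660 ± 358 CPM in Foxp3ΔJag1 nodes, 0.0104 ± 0.0180 CPM in tumours and 1894 ± 446 CPM in Foxp3Ctrl nodes (SD, n = 3 each). The T cell gene Cd3e averaged 181 ± 14.4 CPM in Foxp3ΔJag1 nodes, 5.57 ± 1.76 CPM in tumours and 159 ± 29.9 CPM in Foxp3Ctrl nodes (SD, n = 3 each), and the chemokine gene Ccl21a had 5 counts or fewer in every library. Melanoma markers (Pmel, Tyr, Dct, Tyrp1, Mlana) summed to between 5.70 and 9.19 CPM in Foxp3ΔJag1 nodes, between 16386 and 21785 CPM in tumours and between 4.20 and 24.8 CPM in Foxp3Ctrl nodes. The highest Foxp3Ctrl node value belongs to Foxp3Ctrl node 3, which had 282 counts of Dct, against 0 and 3 in Foxp3Ctrl nodes 1 and 2, and the results that rest on its reads are also given without it. In bulk tissue, fewer cells of a type and less RNA per cell cannot be told apart.

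The promoters of 4 of the genes are shown because these genes carry the contrasts described below. Sycp1 was counted in one group of nodes alone, Fkbp6 and Ddx4 were highest in tumours, and Dazl had no count in tumours. Of these 4 only Dazl is without a match. Sycp1, which has both motifs, had no count in tumours either, and Syce2 and Stag3, lower in tumours, also have both. A link between matches and levels was not tested. Each is 250 bases before and 50 bases after an annotated start on the minus strand (RefSeq, GRCm38.p6), printed 5′ to 3′. Capitals mark the E-box CACGTG and the E2F6-type motif TCCCGC, searched on both strands, so GCGGGA marks the second motif on the opposite strand. The windows are chr3:102936051-102936350 for Sycp1, chr5:135349995-135350294 for Fkbp6, chr13:112652261-112652560 for Ddx4 and chr17:50293571-50293870 for Dazl.
Sycp1: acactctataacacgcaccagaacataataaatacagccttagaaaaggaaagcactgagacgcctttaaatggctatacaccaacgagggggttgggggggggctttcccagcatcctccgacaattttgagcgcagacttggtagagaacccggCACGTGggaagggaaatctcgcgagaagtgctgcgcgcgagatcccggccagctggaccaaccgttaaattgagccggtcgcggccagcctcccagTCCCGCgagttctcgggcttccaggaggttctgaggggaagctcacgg
Fkbp6: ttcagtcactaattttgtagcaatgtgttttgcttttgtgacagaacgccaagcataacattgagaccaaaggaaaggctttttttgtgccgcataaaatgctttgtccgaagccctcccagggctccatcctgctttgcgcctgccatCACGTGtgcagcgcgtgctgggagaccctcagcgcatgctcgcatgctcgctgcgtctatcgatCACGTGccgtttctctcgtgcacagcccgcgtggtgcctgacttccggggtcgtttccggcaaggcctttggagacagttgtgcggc
Ddx4: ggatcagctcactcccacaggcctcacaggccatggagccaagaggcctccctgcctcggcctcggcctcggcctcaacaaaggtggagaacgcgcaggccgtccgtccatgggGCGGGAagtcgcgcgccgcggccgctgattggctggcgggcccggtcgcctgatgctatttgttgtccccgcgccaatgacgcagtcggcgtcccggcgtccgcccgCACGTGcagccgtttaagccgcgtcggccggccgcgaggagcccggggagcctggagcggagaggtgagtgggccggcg
Dazl: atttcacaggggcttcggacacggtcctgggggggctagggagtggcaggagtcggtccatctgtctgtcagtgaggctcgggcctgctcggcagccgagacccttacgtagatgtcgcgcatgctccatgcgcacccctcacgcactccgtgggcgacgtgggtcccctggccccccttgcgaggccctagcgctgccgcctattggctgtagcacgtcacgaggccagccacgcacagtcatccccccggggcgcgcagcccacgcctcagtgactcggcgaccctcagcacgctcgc

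All 10 genes had a promoter in the RefSeq table, in 13 windows of 300 bases. The E-box was present for 7 of the 10 genes (70%), against 8.09% of 27025 genes with a promoter in the table. The E2F6-type motif was present for 6 of 10 (60%), against 22% of all genes. The cyclic AMP response element TGACGTCA was found in none of the 10, against 2.03% of all genes. The median window held 24 CpG dinucleotides and 61.3% G and C, against 7 and 52.7% over all 32851 windows. Each of these motifs contains a CpG, and the motif shares were not compared at equal CpG content. Sycp2, Syce1 and Dazl had neither an E-box nor an E2F6-type motif in these windows, which says nothing of sites outside them.

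**Figure D1:**
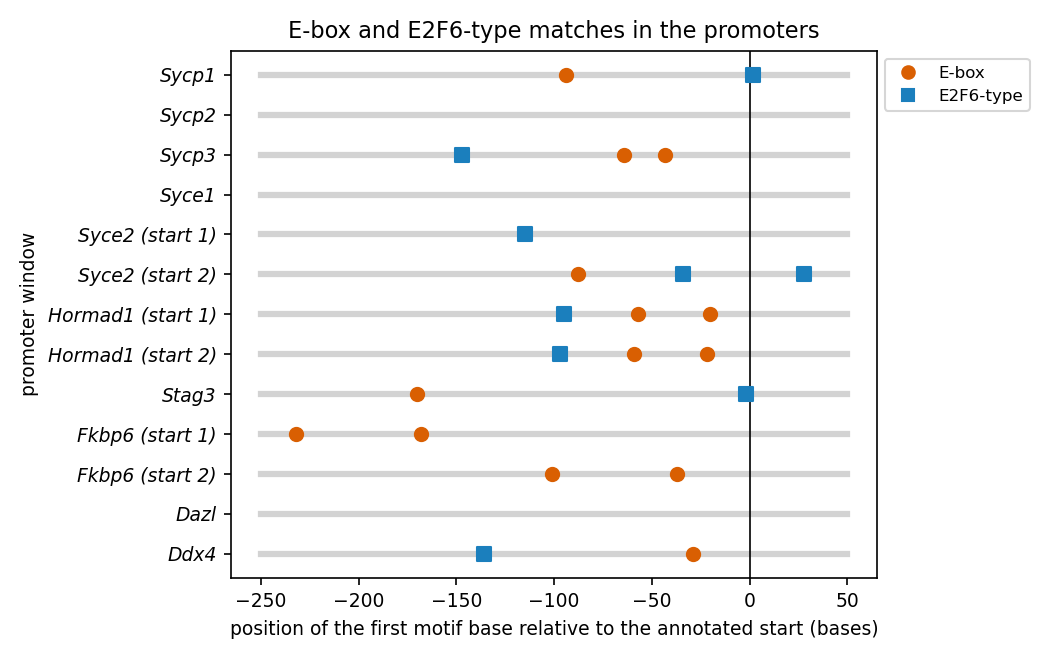
Positions of E-box (circles) and E2F6-type (squares) matches in the 13 promoter windows of the 10 genes. The x axis is the position in bases of the first base of the match relative to the annotated start, which is at 0, and grey bars are the windows. Sycp1 carries an E-box at -94 and an E2F6-type match at 2, Ddx4 an E-box at -29, and Fkbp6 2 E-boxes in each of its windows.

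In the window of Sycp1 the E-box begins 94 bases before the start, at -94, and the E2F6-type motif just after the start, at 2. Fkbp6 has 2 annotated starts, and the printed window holds E-boxes at -101 and -37, with no E2F6-type motif. Ddx4 has its E-box at -29 and its E2F6-type motif at -136. Among 49 genes of the wider meiosis and germ cell lists described below that have a promoter in the table, 13 (26.5%) held an E-box and 19 (38.8%) an E2F6-type motif. A match is a run of letters and is not evidence that a factor binds there.

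Taken over all 9 libraries, the 10 genes comprised genes counted in both tissues, 1 gene counted almost only in tumours (Fkbp6), 1 counted only in Foxp3ΔJag1 nodes (Sycp1), and genes with few reads.

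**Figure D2:**
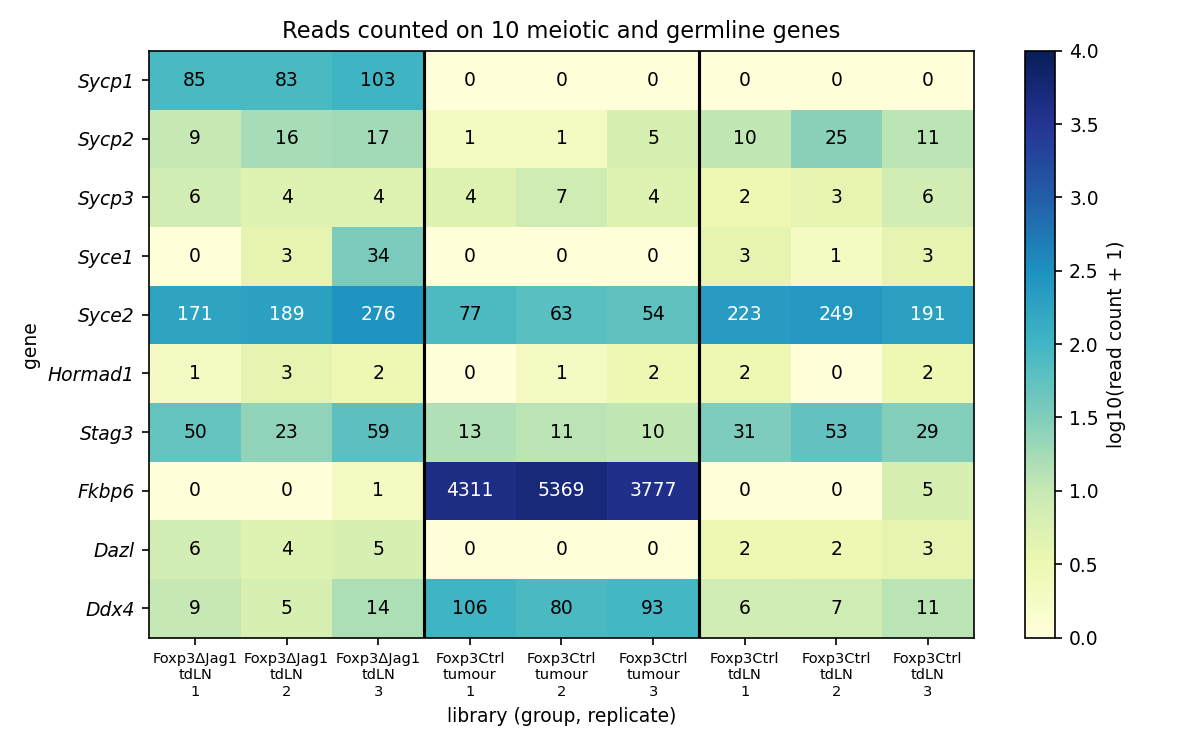
Reads counted on each of the 10 genes (rows) in each of the 9 libraries (columns, by group and replicate). Numbers are raw counts and the colour is log10(count + 1). Sycp1 has 83 to 103 counts in the 3 Foxp3ΔJag1 nodes and 0 in the other 6 libraries, and Fkbp6 has 3777 to 5369 counts in tumours and at most 5 in any node.

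Sycp1 encodes the transverse filament that spans the synaptonemal complex between the paired chromosomes (chromosome 3, 102818499 to 102936100, minus strand, GRCm38). It had 85, 83 and 103 counts in Foxp3ΔJag1 nodes 1, 2 and 3, and 0 in each of the 3 Foxp3Ctrl tumours and each of the 3 Foxp3Ctrl nodes. The counts therefore separated Foxp3ΔJag1 nodes from both other groups without overlap, and the 3 Foxp3ΔJag1 nodes lay close together, at 2.34 ± 0.148 CPM (SD, n = 3). A count of 0 in the 3 Foxp3Ctrl nodes together allows up to 0.0261 CPM, taking 3 counts as the limit, and against this limit Sycp1 was at least 89.3-fold higher in Foxp3ΔJag1 nodes. This bound lay between 55.8 and 91.6 when any one of the 6 nodes was left out. The limit covers counting error in the Foxp3Ctrl nodes only, and the bound takes the 271 Foxp3ΔJag1 node reads as exact. Neither covers the spread between animals.

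Per kilobase of exon the level of Sycp1 in Foxp3ΔJag1 nodes was 0.659 CPM, higher than that of 69.4% of the 48970 genes with an exon length there. Many of these genes had no count, and among the 29484 genes above 0 there Sycp1 ranked 15009 from the highest. The exons of Sycp1 overlap no exon of another annotated gene. Its nearest named neighbours are Tspan2, a tetraspanin gene 17.0 kb away on one side, and Nr1h5, a nuclear receptor gene 3.56 kb away on the other. Tspan2 had 343, 349 and 414 counts in Foxp3ΔJag1 nodes, against 402, 492 and 463 in Foxp3Ctrl nodes. Nr1h5 had 2 counts in Foxp3ΔJag1 node 3 and 0 in every other library.

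No gene within 1 Mb of Sycp1 passed the test between the nodes. Of 67 annotated genes in that window, 26 passed the filter on low counts and 0 of them passed the edgeR quasi-likelihood test between Foxp3ΔJag1 and Foxp3Ctrl nodes at an adjusted p under 0.05. DESeq2 also called 0, and 1 gene, Tspan2, had an unadjusted p under 0.05 in edgeR. Of all 18440 genes tested, 0.038% were called and 581 had an unadjusted p under 0.05 in edgeR. A count of 0 was therefore likely for any window of this size, and it does not show that the difference is limited to Sycp1. Tspan2 averaged 9.58 ± 0.836 CPM in Foxp3ΔJag1 nodes and 11.9 ± 1.06 CPM in Foxp3Ctrl nodes (SD, n = 3 each), a log2 fold change of -0.33 ± 0.12 (SE, edgeR adjusted p = 0.953). The log2 fold changes of the 26 ran from -0.33 to 0.71, the last for Syt6, a synaptotagmin gene, with a median of 0.03, against -0.0045 over all 18440 genes tested.

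**Figure D3:**
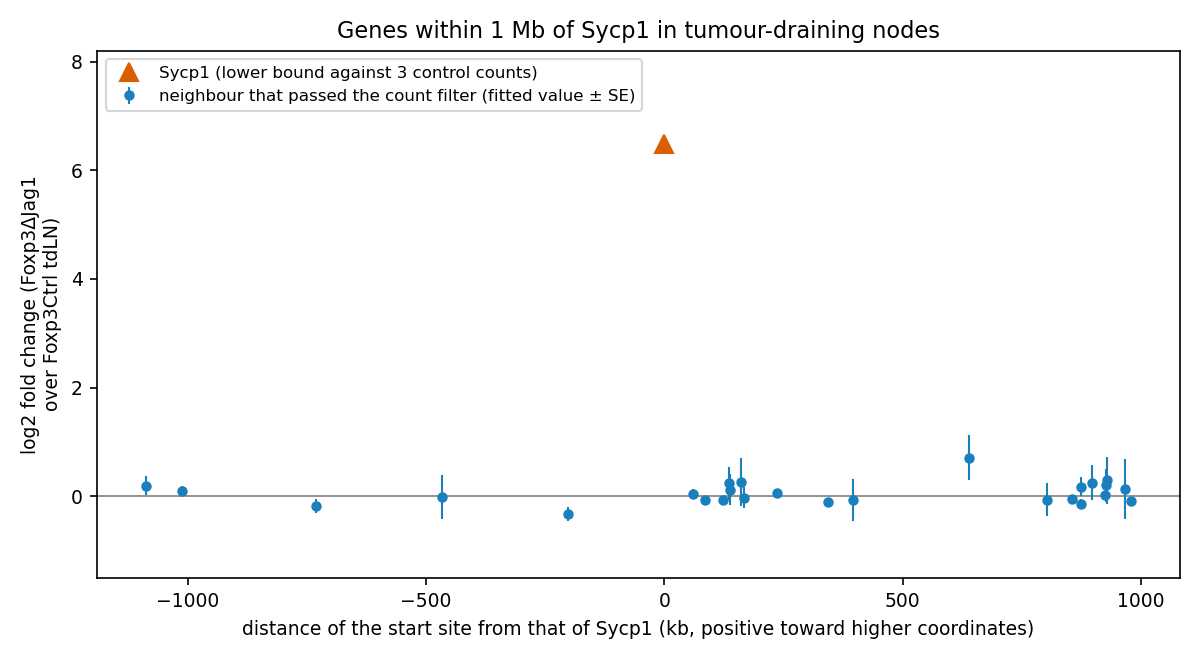
Log2 fold change between Foxp3ΔJag1 and Foxp3Ctrl nodes (y axis) of the 26 genes within 1 Mb of Sycp1 that passed the filter on low counts (circles, fitted value ± SE, n = 3 each), by the distance of their start site from that of Sycp1 in kb (x axis). The triangle is Sycp1 at its lower bound against 3 counts over the Foxp3Ctrl nodes, and the 26 others lie between -0.33 and 0.71.

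The other 6 genes of the complex and the chromosome axis showed no such separation between nodes. Syce2, a protein of the central element, was the most abundant of them and was counted in every library (chromosome 8, 84872111 to 84888221). It had 171, 189 and 276 counts in Foxp3ΔJag1 nodes, against 223, 249 and 191 in Foxp3Ctrl nodes. The 2 node groups overlapped, at 5.45 ± 0.899 CPM in Foxp3ΔJag1 nodes and 5.77 ± 0.377 CPM in Foxp3Ctrl nodes (SD, n = 3 each; log2 fold change -0.11 ± 0.18 SE). In tumours Syce2 had 77, 63 and 54 counts, or 1.76 ± 0.264 CPM, below every node.

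Stag3 encodes a cohesin subunit that in germ cells holds sister chromatids together (chromosome 5, 138280240 to 138312393). It had 50, 23 and 59 counts in Foxp3ΔJag1 nodes, against 31, 53 and 29 in Foxp3Ctrl nodes, and the groups overlapped (log2 fold change 0.17 ± 0.32 SE). Tumours had 13, 11 and 10 counts of Stag3, again below every node. Its level averaged 1.11 ± 0.358 CPM in Foxp3ΔJag1 nodes, 0.309 ± 0.0389 CPM in tumours and 0.967 ± 0.229 CPM in Foxp3Ctrl nodes (SD, n = 3 each).

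Sycp2 and Sycp3 form the lateral elements, the protein rails along each chromosome. Sycp2 (chromosome 2, 178345293 to 178407685) had 9, 16 and 17 counts in Foxp3ΔJag1 nodes, against 10, 25 and 11 in Foxp3Ctrl nodes, with overlapping groups (log2 fold change -0.14 ± 0.43 SE). In tumours it had 1, 1 and 5 counts, so its tumour level rested on a handful of reads. Sycp3 (chromosome 10, 88459569 to 88473236) had 6, 4 and 4 counts in Foxp3ΔJag1 nodes, 4, 7 and 4 in tumours, and 2, 3 and 6 in Foxp3Ctrl nodes. All 3 groups of Sycp3 overlapped, and 52.2% of its exonic bases are shared with Chpt1, a phospholipid synthesis gene on the other strand. Nothing used here says whether counting was by strand, and the reads of this pair and of the other such pairs named here cannot be told apart.

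Syce1 and Hormad1 were near the limit of detection. Syce1, another central element protein (chromosome 7, 140777229 to 140787852), had 0, 3 and 34 counts in Foxp3ΔJag1 nodes, 0 in each tumour, and 3, 1 and 3 in Foxp3Ctrl nodes. Its summed count was 5.23 times that of Foxp3Ctrl nodes after scaling to library total (95% exact counting interval 2.30 to 13.9), yet 34 of the 37 reads came from node 3 and node 1 had none, so the groups overlapped. Hormad1, a protein of the chromosome axis that monitors pairing (chromosome 3, 95559677 to 95587671), had 1, 3 and 2 counts in Foxp3ΔJag1 nodes, 0, 1 and 2 in tumours, and 2, 0 and 2 in Foxp3Ctrl nodes. No difference in Hormad1 was detectable at this depth.

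Fkbp6 had by far the highest count of the 10 genes, and nearly all of it was in tumours. It encodes an immunophilin that in the testis works with the chaperone HSP90 in loading small RNAs of the piRNA class and is needed for male meiosis in mice (chromosome 5, 135291704 to 135350044, minus strand). Foxp3ΔJag1 nodes had 0, 0 and 1 counts of Fkbp6. Foxp3Ctrl tumours had 4311, 5369 and 3777, against 0, 0 and 5 in Foxp3Ctrl nodes 1, 2 and 3. In CPM the tumours were at 115, 131 and 118, with a mean of 121 ± 8.69 (SD, n = 3), and the summed level was 2794 times that of Foxp3Ctrl nodes, with a 95% exact counting interval of 1197 to 8605.

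Per kilobase of exon Fkbp6 stood at 69.1 CPM in tumours, rank 670 from the highest among 28127 genes above 0 there. That ratio rests on Foxp3Ctrl node 3, which held all 5 of the node reads. Without node 3 the Foxp3Ctrl nodes had 0 counts of Fkbp6, and tumours were at least 3219-fold higher against 3 counts over the remaining nodes. Every node had some reads of melanoma markers, and node 3 had the most of Pmel, Dct, Tyrp1 and Mlana. For every 1000 reads of Dct, a melanin synthesis gene, there were 18.0, 19.2 and 13.4 reads of Fkbp6 in tumours 1, 2 and 3, and 17.7 in Foxp3Ctrl node 3. At the ratio of the summed tumour counts, the 282 Dct reads of node 3 correspond to 4.73 reads of Fkbp6, against 5 counted. The number depends on the marker, with 1.71 reads from Tyrp1, 3.93 from Tyr, 6.79 from Mlana and 11.1 from Pmel in the same node. In Foxp3Ctrl node 2, where 0 reads of Fkbp6 were counted, the 5 markers give between 0.0503 and 4.49. The part of tumour RNA in the node value was not tested.

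**Figure D4:**
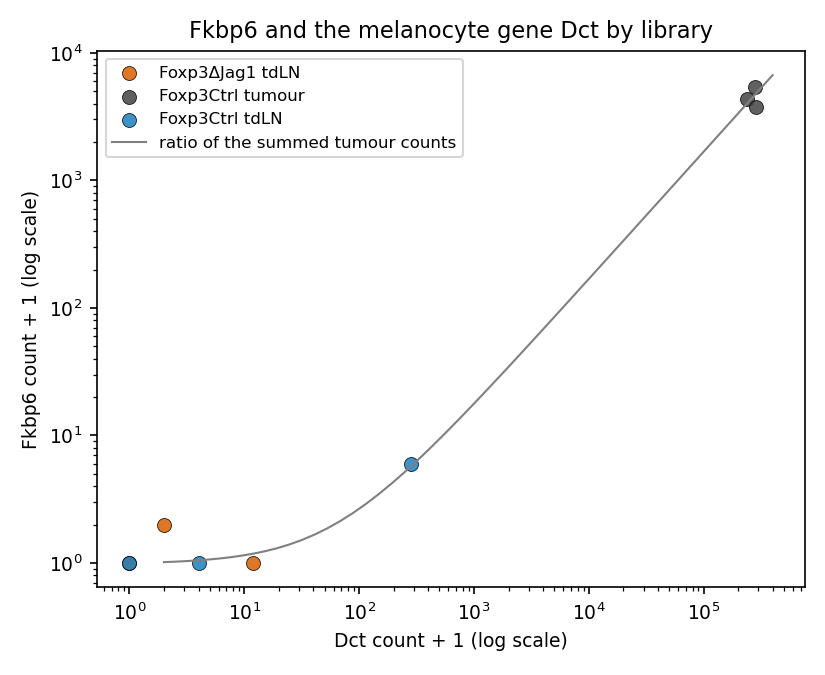
Fkbp6 count (y axis) against Dct count (x axis) in the 9 libraries, each with 1 added and on a log scale. The grey line is the ratio of the summed tumour counts. Foxp3Ctrl node 3, with 282 Dct and 5 Fkbp6 reads, lies on the line, and Foxp3ΔJag1 node 2 and Foxp3Ctrl node 1, with none of either, share a point at the lower left.

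The nearest genes to Fkbp6 on either side were also higher in tumours. Fzd9, a Wnt receptor gene 40.5 kb away, had 266, 520 and 221 counts in tumours, against 5, 6 and 5 in Foxp3Ctrl nodes. Trim50, an E3 ubiquitin ligase gene 3.25 kb away, had 8, 13 and 5 counts in tumours, against 1, 0 and 2 in Foxp3Ctrl nodes. These 2 genes were named after their values were seen, and their differences are given as counts alone. Of all genes tested, 35.6% were called higher in tumours. The nearest genes to Ddx4 went the other way. Il31ra had 9, 1 and 3 counts in tumours, against 20, 26 and 23 in Foxp3Ctrl nodes. Slc38a9 had 985, 940 and 906 counts in tumours, against 1402, 1940 and 1719 in Foxp3Ctrl nodes.

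Ddx4, the mouse counterpart of the fly helicase vasa and a classic marker of the germ line, was the other gene higher in tumours (chromosome 13, 112598333 to 112652475, minus strand). It had 9, 5 and 14 counts in Foxp3ΔJag1 nodes, 106, 80 and 93 in tumours, and 6, 7 and 11 in Foxp3Ctrl nodes. Every tumour lay above every node, and the node groups overlapped. The means were 0.233 ± 0.0818 CPM in Foxp3ΔJag1 nodes, 2.56 ± 0.525 CPM in tumours and 0.213 ± 0.0845 CPM in Foxp3Ctrl nodes (SD, n = 3 each). The ratio of summed levels between tumours and Foxp3Ctrl nodes was 12.1 (95% exact counting interval 7.94 to 19.2). In Foxp3Ctrl node 3 the 5 melanoma markers correspond to between 0.0355 and 0.230 reads of Ddx4 at the tumour ratio, against 11 counted there. Per kilobase, Ddx4 in tumours stood at 0.848 CPM, far under the 69.1 CPM of Fkbp6.

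Dazl, an RNA-binding protein that controls translation in germ cells, had no count in tumours (chromosome 17, 50279395 to 50293636). It had 6, 4 and 5 counts in Foxp3ΔJag1 nodes, 0 in each tumour, and 2, 2 and 3 in Foxp3Ctrl nodes. Against 3 counts over the group, Dazl came out 2.25-fold lower in tumours than in Foxp3Ctrl nodes. This value takes the 7 Foxp3Ctrl node reads as exact, and so few reads do not rank the 2 groups. Between the nodes its CPM values did not overlap, at 0.130 ± 0.0233 CPM in Foxp3ΔJag1 nodes and 0.0620 ± 0.0200 CPM in Foxp3Ctrl nodes (SD, n = 3 each). The ratio of summed levels was 2.12, with a 95% exact counting interval of 0.813 to 6.14.

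Sycp1 and Dazl were the 2 of the 10 whose values did not overlap between Foxp3ΔJag1 and Foxp3Ctrl nodes, and Dazl did not pass the count filter. Among the 18440 genes that did, 7.29% had groups that did not overlap. Of the 10 genes, 4 passed the filter in this comparison (Sycp1, Sycp2, Syce2 and Stag3). Sycp1, which passed through the group where it is high, was called higher by edgeR and 0 were called lower, where 0.038% of all genes tested were called, 0.0325% higher and 0.00542% lower. Since Sycp1 was chosen for this difference, the call is no evidence on it.

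Between Foxp3Ctrl tumours and Foxp3Ctrl nodes, 5 of the 10 genes passed the filter, and edgeR called Fkbp6 and Ddx4 higher and Sycp2, Syce2 and Stag3 lower. In this comparison 73.2% of 18566 genes were called, 35.6% higher and 37.6% lower, and the groups did not overlap for 77.9%. They did not overlap for 7 of the 10 genes, Sycp2, Syce1, Syce2, Stag3, Fkbp6, Dazl and Ddx4. Syce1 and Dazl did not pass the filter, while the share of 77.9% covers only genes that did. A call is therefore the common outcome for any gene here. The log2 fold changes were 11.39 ± 0.45 for Fkbp6, 3.64 ± 0.35 for Ddx4, -1.66 ± 0.22 for Syce2, -1.60 ± 0.33 for Stag3 and -2.51 ± 0.69 for Sycp2 (each ± SE). That of Sycp2 was -3.71 without tumour 3, which held 5 of the 7 tumour reads, and its call was lost without tumour 2. Foxp3Ctrl nodes serve as the comparison group for both Foxp3ΔJag1 nodes and tumours, so these 2 sets of differences are not independent.

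Across the 9 libraries, Fkbp6 and Ddx4 followed each other (Pearson r of log2 CPM = 0.99), as did Syce2 and Stag3 (r = 0.89), and the r of Fkbp6 with Syce2 was -0.97. The 9 libraries fall into tumours and nodes, so these r values mostly describe that split, and they carry no p. Sycp1 had r values between -0.53 and 0.51 with the other 5 genes that could be compared.

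The genes most like Sycp1 over the 9 libraries, by Pearson r of log2 CPM with a prior count of 2, were Gm21411 (r = 0.993), the pseudogene Gm6472 (0.988), Zfp990 (0.987), and the pseudogenes Gm5801 (0.975) and Rps19-ps3 (0.965). Gm21411 lies on chromosome 4 (146892406 to 146909590) and had 28, 27 and 32 counts in Foxp3ΔJag1 nodes, 0, 0 and 1 in tumours, and 0 in each Foxp3Ctrl node. Zfp990, a zinc finger gene also on chromosome 4 (145510759 to 145539188), had 1085, 1036 and 1226 counts in Foxp3ΔJag1 nodes, 3, 0 and 1 in tumours, and 4, 3 and 8 in Foxp3Ctrl nodes. None of the 5 lies on chromosome 3 with Sycp1, and 3 of them, Gm21411, Zfp990 and Rps19-ps3, lie on chromosome 4 between 145510759 and 147822202. Unlike Sycp1, the pseudogenes were counted in all 9 libraries. Gm6472 had 1915, 1667 and 2341 counts in Foxp3ΔJag1 nodes, 119, 157 and 106 in tumours, and 182, 235 and 220 in Foxp3Ctrl nodes. Gm5801 had 91, 150 and 203 counts in Foxp3ΔJag1 nodes, 3, 8 and 2 in tumours, and 8, 9 and 5 in Foxp3Ctrl nodes. Rps19-ps3 had 100, 86 and 111 counts in Foxp3ΔJag1 nodes, 34, 34 and 23 in tumours, and 41, 40 and 45 in Foxp3Ctrl nodes. The 3 pseudogenes share sequence with their parent genes, so their counts are uncertain.

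The genes most like Fkbp6 were Tbx4, a limb transcription factor gene, Abca12, a lipid transporter gene, and Alx1, a craniofacial homeobox gene, each with r = 0.999. Tbx4 had 2049, 2360 and 2030 counts in tumours, Abca12 1834, 2123 and 1181, and Alx1 973, 1058 and 846. All 3 had 0 counts in the 3 Foxp3ΔJag1 nodes and in Foxp3Ctrl nodes 1 and 2. In Foxp3Ctrl node 3 they had 5, 3 and 2 counts, the same single node in which Fkbp6 was seen among the controls. The ranking used the same 9 libraries, node 3 included, so it favours genes that share this node, and the match is no separate evidence.

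Markers of whole germ cells gave little signal. Each group had 3 of the 10 spermatid markers at 0 in all of its libraries, not the same 3 in each, and the summed level was between 1.99 and 3.05 CPM in Foxp3ΔJag1 nodes, between 0.293 and 0.639 CPM in tumours and between 1.37 and 2.74 CPM in Foxp3Ctrl nodes. The most abundant over the 9 libraries were Spaca1, at 1.26 CPM in Foxp3ΔJag1 nodes, 0.0259 CPM in tumours and 1.00 CPM in Foxp3Ctrl nodes, and Tnp2, at 0.474 CPM in Foxp3ΔJag1 nodes, 0.147 CPM in tumours and 0.519 CPM in Foxp3Ctrl nodes. Tnp1, a transition protein that defines late spermatids, had 0 counts in all 9 libraries. Of 10 oocyte markers the summed level was between 1.46 and 2.76 CPM in Foxp3ΔJag1 nodes, between 1.64 and 2.29 CPM in tumours and between 1.58 and 3.55 CPM in Foxp3Ctrl nodes, with 3 of the 10 at 0 throughout the Foxp3ΔJag1 nodes, 2 throughout the tumours and 3 throughout the Foxp3Ctrl nodes. Its most abundant member over the 9 libraries, Oosp1, averaged 1.74 CPM in Foxp3ΔJag1 nodes, 0.00888 CPM in tumours and 1.97 CPM in Foxp3Ctrl nodes. The next, Gdf9, averaged 0.372 CPM in Foxp3ΔJag1 nodes, 1.15 CPM in tumours and 0.401 CPM in Foxp3Ctrl nodes. Figla and Nlrp5, which define oocytes, were at 0 throughout.

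The 10 spermatogonia markers summed to between 28.1 and 31.2 CPM in Foxp3ΔJag1 nodes, between 40.9 and 82.0 CPM in tumours and between 28.0 and 34.1 CPM in Foxp3Ctrl nodes. Etv5 averaged 23.5 CPM in Foxp3ΔJag1 nodes, 32.2 CPM in tumours and 23.9 CPM in Foxp3Ctrl nodes, while Uchl1 averaged 1.71 CPM in Foxp3ΔJag1 nodes, 23.3 CPM in tumours and 1.86 CPM in Foxp3Ctrl nodes. Body tissues also express both, while Dmrt1 and Rhox13 were at 0 in all 9 libraries. In every library of the group 2 of the 10 were at 0 in Foxp3ΔJag1 nodes, 4 in tumours and 2 in Foxp3Ctrl nodes. None of the 3 marker lists had a gene called between Foxp3ΔJag1 and Foxp3Ctrl nodes by edgeR, where 0.038% of all genes tested were called. Between Foxp3Ctrl tumours and nodes, where 73.2% were called, 2 spermatid markers were called lower. Of the oocyte markers 2 were called higher and 1 lower, and of the spermatogonia markers 2 higher and 2 lower. Ooep of the oocyte list had 82 counts over the tumours and 1 over Foxp3Ctrl nodes, and Sall4 of the spermatogonia list 37 and 1. The 10 proliferation markers, of which Top2a and Mki67 had the highest means over the 9 libraries, summed to between 587 and 770 CPM in Foxp3ΔJag1 nodes, between 1824 and 2056 CPM in tumours and between 611 and 860 CPM in Foxp3Ctrl nodes. All 10 were called higher in tumours and 0 were called between the nodes. Their part in the tumour levels of Fkbp6 and Ddx4 was not tested.

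A wider set of 66 genes of the same pathways, with the 10 left out, was put to the same comparisons. It was made of 15 genes of the synaptonemal complex and chromosome axis, 26 of meiotic recombination and entry into meiosis, and 25 of germ cell RNA control and the piRNA pathway, and 64 had a row in the tables. Means of at least 1 CPM were reached by 20 of the 64 in Foxp3ΔJag1 nodes, 15 in tumours and 19 in Foxp3Ctrl nodes. All libraries were at 0 for 10 of them in Foxp3ΔJag1 nodes, 13 in tumours and 8 in Foxp3Ctrl nodes.

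Between Foxp3ΔJag1 and Foxp3Ctrl nodes, 31 of the 64 passed the filter and edgeR called 0 higher and 0 lower. Of all genes tested 0.038% were called, so 0 was the likely count for any list of this size. No gene had an unadjusted p under 0.05 in edgeR, that is 0 of 31, against 581 of 18440 genes tested, and DESeq2 also called 0. This count of unadjusted p depended on the setting. It was 2 of 31 with DESeq2 size factors in edgeR. Without Foxp3Ctrl node 3 it was 3 of 32, against 3175 of 18777 genes tested. Their median log2 fold change was 0.02, against -0.0045 over all genes tested. It was 0.34 over 6 axis genes, -0.03 over 16 recombination genes and 0.10 over 9 germ cell RNA genes. The genes with the smallest p of the first list were Ccdc155, which links chromosome ends to the cytoskeleton (log2 fold change 0.55 ± 0.34 SE), Smc1b, a meiotic cohesin gene (0.43 ± 0.39), and Rec8, the meiotic cohesin cleaved at division (0.37 ± 0.40).

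Rec8 had 159, 47 and 85 counts in Foxp3ΔJag1 nodes, against 77, 56 and 81 in Foxp3Ctrl nodes. In CPM, Foxp3ΔJag1 library 1 stood above the Foxp3Ctrl range and libraries 2 and 3 lay within it. Of the second list the smallest p belonged to Zcwpw1, a reader of the histone marks set at recombination sites (log2 fold change 0.43 ± 0.19 SE), Rec114, which acts in making DNA breaks (0.49 ± 0.24), and Hfm1, a crossover helicase gene (-0.46 ± 0.34). Of the third list they were Henmt1, the piRNA methyltransferase (0.77 ± 0.34), Tdrd7, a tudor protein of germ granules (0.21 ± 0.13), and Rnf17, another tudor protein (0.64 ± 0.47). Each of these 9 had an edgeR adjusted p of 0.953.

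Between Foxp3Ctrl tumours and Foxp3Ctrl nodes, 31 of the 64 passed the filter, of which 10 rose and 15 fell in tumours at an edgeR adjusted p under 0.05. That is 80.6% called, against 73.2% of all genes tested, and no excess over other genes was tested. The median log2 fold change was -0.66, against -0.05 over all genes, and it was -3.06 over the axis genes, -1.02 over the recombination genes and 0.49 over the germ cell RNA genes.

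**Figure D5:**
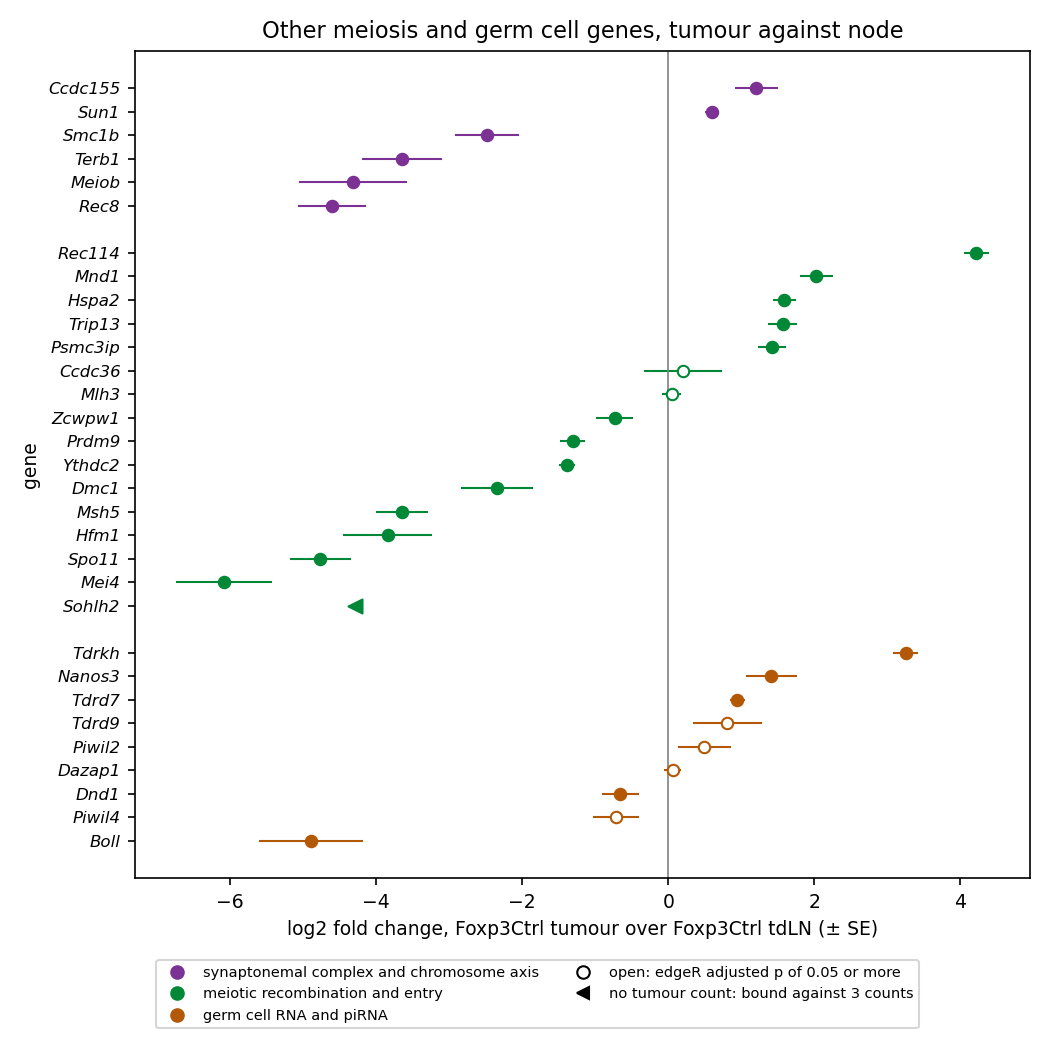
Log2 fold change between Foxp3Ctrl tumours and Foxp3Ctrl nodes (x axis, ± SE, n = 3 each) of the 31 genes of the 3 meiosis and germ cell lists that passed the filter on low counts, grouped by list. Filled circles have an edgeR adjusted p under 0.05 and open circles do not, and the triangle is Sohlh2, with no count in tumours, at its bound against 3 counts. Of the 31, 10 are called higher and 15 lower in tumours.

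Of the chromosome axis list all 6 genes that passed the filter were called, 2 higher and 4 lower in tumours. Rec8 had 2, 5 and 1 counts in tumours, against 77, 56 and 81 in Foxp3Ctrl nodes (log2 fold change -4.60 ± 0.47 SE, edgeR adjusted p = 5.88e-05). Terb1, which ties telomeres to the nuclear envelope in meiosis, averaged 0.123 ± 0.0852 CPM in tumours and 1.61 ± 0.728 CPM in Foxp3Ctrl nodes (SD, n = 3 each; edgeR adjusted p = 0.000491). Smc1b fell by 2.48 on the log2 scale, with 2 counts in each tumour (edgeR adjusted p = 0.00118). Meiob, a single-stranded DNA binding protein, had 2 counts over the 3 tumours, against 50 over the Foxp3Ctrl nodes, a ratio in CPM of 0.0415 with a 95% exact counting interval of 0.00489 to 0.158 (edgeR adjusted p = 0.00098).

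Rec8, Terb1, Smc1b and Meiob were thus lower in tumours beside Syce2, Stag3 and Sycp2. The 2 genes of the list called higher were Sun1, a nuclear envelope protein that body cells also use, and Ccdc155. Of the genes of the list that did not pass the filter, Majin had 46 counts over the tumours and 10 over Foxp3Ctrl nodes, and Tex12 24 and 4. Hormad2 had 5 and 11 and Six6os1 7 and 9, while Syce3, Rad21l and Terb2 had no count in either group. Sun1 averaged 82.5 ± 5.38 CPM in tumours and 56.9 ± 2.81 CPM in Foxp3Ctrl nodes (SD, n = 3 each), a log2 fold change of 0.60 ± 0.09 (SE, edgeR adjusted p = 0.000439). Ccdc155 had 26, 30 and 18 counts in tumours, against 11, 11 and 12 in Foxp3Ctrl nodes (log2 fold change 1.21 ± 0.30 SE, edgeR adjusted p = 0.00637).

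Of the recombination and entry list, 16 genes passed the filter, and 5 rose and 9 fell in tumours. Rec114 had 611, 749 and 520 counts in tumours, against 35, 39 and 34 in Foxp3Ctrl nodes (log2 fold change 4.22 ± 0.17 SE, edgeR adjusted p = 6.24e-07), and 26.9% of its exonic bases are shared with Nptn on the other strand. Spo11, the enzyme that cuts DNA to start recombination, had 9, 5 and 4 counts in tumours, against 169, 129 and 231 in Foxp3Ctrl nodes (log2 fold change -4.76 ± 0.42 SE, edgeR adjusted p = 2.50e-05). Mei4, a partner of Rec114 in making these breaks, had 1 count over the 3 tumours, against 99 over the Foxp3Ctrl nodes, a ratio in CPM of 0.0105 with a 95% exact counting interval of 0.000263 to 0.0598 (edgeR adjusted p = 7.71e-05).

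The count of Rec114 was thus higher and those of its partners Spo11 and Mei4 lower in tumours. Reads of Nptn within the Rec114 count cannot be told apart. Msh5, a crossover protein, fell by 3.64 and Ythdc2, an RNA helicase needed to enter meiosis, fell by 1.38 on the log2 scale (edgeR adjusted p = 4.66e-05 and 1.59e-05). Hspa2, a heat shock protein abundant in spermatocytes, rose to 25.1 ± 3.40 CPM in tumours, against 8.66 ± 0.837 CPM in Foxp3Ctrl nodes (SD, n = 3 each), a log2 fold change of 1.59 ± 0.16 (SE, edgeR adjusted p = 4.89e-05). Sohlh2, a germ cell transcription factor gene, was at 0 in tumours and at least 19.6-fold lower there against 3 counts over the group.

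Of the germ cell RNA list 9 genes passed the filter, and 3 rose and 2 fell in tumours. Tdrkh, a tudor protein of piRNA trimming, had 1593, 2137 and 1628 counts in tumours, against 182, 183 and 238 in Foxp3Ctrl nodes (log2 fold change 3.25 ± 0.17 SE, edgeR adjusted p = 1.90e-06), and shares 36.7% of its exonic bases with Oaz3 on the other strand. Tdrd7 averaged 54.1 ± 6.00 CPM in tumours and 29.2 ± 1.97 CPM in Foxp3Ctrl nodes (SD, n = 3 each; edgeR adjusted p = 8.41e-05). Boll, of the same family as Dazl, had 0, 4 and 0 counts in tumours, against 41, 55 and 42 in Foxp3Ctrl nodes (log2 fold change -4.89 ± 0.71 SE, edgeR adjusted p = 0.000389).

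Both Dazl and Boll were thus at or near 0 in tumours, while Ddx4 was higher there. Nanos3, an RNA-binding protein that keeps primordial germ cells alive, had 13, 15 and 12 counts in tumours, against 6, 6 and 4 in Foxp3Ctrl nodes (log2 fold change 1.41 ± 0.35 SE, edgeR adjusted p = 0.00693, and 0.0795 with DESeq2). Dnd1, an RNA-binding protein that germ cells need to survive, had 69, 48 and 54 counts in tumours, against 94, 96 and 102 in Foxp3Ctrl nodes (log2 fold change -0.66 ± 0.25 SE, edgeR adjusted p = 0.0456). The call of Dnd1 was lost with each mouse as a replicate block (edgeR adjusted p = 0.0543) and without any one of the 6 libraries (edgeR adjusted p between 0.0504 and 0.170).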

How the data were processed

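Whole nodes and tumours were sequenced in bulk. The authors deposited raw read counts as whole numbers, nodes and tumours in a table each. Trimmomatic 0.36, STAR 2.5.2b, featureCounts (Subread 1.5.2) and the build GRCm38 come from the submitters' processing notes. Annotation release and strandedness of the counting: not given in the sources used here. The protocol leaves poly(A) selection or ribosomal RNA depletion unsettled, which affects which transcripts are seen. GENCODE M21 gave names, positions and exon lengths for 48970 of 49315 identifiers.

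Of 13 samples in the labels, 9 libraries were used. The names of 3 tumour columns match no sample, so they entered no step, and the 4 Foxp3ΔJag1 tumours were not analysed here. The labels give all samples batch 1. CPM were computed here from the deposited counts and the library totals. The quasi-likelihood test came from edgeR 4.0.16 (R 4.3.3; TMM, filterByExpr, robust dispersion, Benjamini-Hochberg adjustment over all genes tested, threshold 0.05), separately for nodes and for Foxp3Ctrl tissues, and the procedure was tested on simulated data. The p-values measure the spread between these libraries. Folds against a group at 0 are bounds against 3 counts over the group, and counting intervals are exact (Clopper-Pearson, 95%). Replicates of a group differed by more than sampling noise (chi-square per degree of freedom 18.8 to 83.6).

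The members, lists and tests were chosen with earlier results of these data known. Named genes are all 10 members, up to 6 called genes (or the 3 with the smallest p) of each pathway list, the nearest and called neighbours of Sycp1, the genes most like Sycp1 (5) and Fkbp6 (3), and the 2 most abundant of each marker list, except that one node marker and the sum of that list are not reported here. Sohlh2, Syt6, the neighbours of Fkbp6 and Ddx4, the markers at 0, Ooep, Sall4, Cd3e and Ccl21a were named after their values were seen. So were the genes of the chromosome axis list that did not pass the filter. Pairing was checked by correlating deviations from group means. Same-numbered nodes come from different mice and correlated at -0.19, 0.04 and -0.14. Tumours and nodes of Foxp3Ctrl mice carry the same mouse codes in the library names and are paired by animal (-0.07, 0.12 and -0.0049). The alternatives tried were DESeq2 1.42.0, its size factors in edgeR, scaling by library total, other count filters, a joint fit of 9 libraries, the replicate block and leaving out each library.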

Additional observations from a re-analysis of the deposited data

How the results depend on the processing

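The count of 7 genes called between Foxp3ΔJag1 and Foxp3Ctrl nodes, the background for Sycp1, was 66 with DESeq2 (27 higher and 39 lower, against 6 and 1 in edgeR), 16 when low counts were not filtered, and 11 with the replicate block. Leaving out 1 library gave 6 to 21 calls, with 21 without Foxp3Ctrl node 3 and 16 without Foxp3ΔJag1 node 2, and the cause was not tested. Without Foxp3Ctrl node 3, 3175 of 18777 genes had an unadjusted p under 0.05 in edgeR, against 581 of 18440 with all nodes. The count of 0 for the pathway lists and for the neighbours of Sycp1 held under all 13 alternatives, including the replicate block. Few genes of any kind were called between the nodes, so a count of 0 was likely in advance. Between tumours and nodes, the count of 25 pathway genes called was 16 under the stricter filter of 1 CPM or more in 3 libraries, which leaves 19 of them tested, and 24 with the replicate block, which pairs tumour and node of a mouse. It lay between 23 and 27 when 1 library was left out. The block changed no other call among the genes named here than that of Dnd1. The log2 fold change of Fkbp6 was 11.39 and stayed between 10.78 and 11.52 under every alternative but one, the loss of Foxp3Ctrl node 3, which leaves no node read. Genes with a handful of reads (Sycp3, Hormad1, Syce1, Dazl) cannot be ranked between groups at this depth.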
